A study of Mus musculus with 20 samples.

Results

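Regions of open chromatin that were called in C2C12 cells of WT genotype and not in a cell line lacking Setd2, or the reverse, were compared at day 5 (D5). C2C12 is a mouse myoblast line, whose cells stop dividing, switch on muscle genes and fuse into myotubes when they are induced to differentiate. The measurement was ATAC-seq, in which a transposase inserts sequencing adapters into open DNA and stretches with many insertions are called as peaks. The members were chosen from the peak lists of 6 of the 20 libraries of the series. These were WT D5 in control medium (CTL, replicates 1 and 2), WT D5 under methionine restriction (MR, replicates 1 and 2), and 1 library each of Setd2 KO line 2 at D5 in CTL and in MR. Both D5 libraries of KO line 1 were left out, since their lists held 644 and 1881 peaks. Peaks of the 6 lists that shared at least 1 bp were merged into 50998 regions. A region was named lost when all 4 WT lists and neither KO line 2 list called it, which chose 3038 regions (5.96% of all). It was named gained when both KO line 2 lists and no WT list called it, which chose 1823 regions (3.57%). A further 11888 regions were called in all 6 lists and are named shared.

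The loss of Setd2 is represented at D5 by 1 KO line in these comparisons, so a property of that line and an effect of the genotype cannot be told apart. The labels do not say how the KO lines were made or whether each is a clone. They also do not say whether WT replicates came from separate cultures, so p-values measure the spread between these libraries, which may be technical. The libraries of line 2 also had a lower estimated background coverage, the number of fragments over a position outside peaks. It was solved from the deposited values under formulas assumed for the unnamed peak caller, so it is no read count. It was 5.29 and 5.88 in the WT CTL libraries and 5.17 and 5.45 in the WT MR libraries. It was 1.84 and 1.42 in the CTL and MR libraries of KO line 2. The WT lists held 22465 and 20847 peaks in CTL and 39538 and 39263 in MR, and those of KO line 2 held 29963 in CTL and 22062 in MR. The lowest fold enrichment over background that was called was 1.88 to 2.32 in the WT lists, and 2.61 and 2.56 in the KO line 2 lists. None of the 3038 lost regions had its highest WT fold below those lowest KO folds. However, 233 of them had it below 3.45, a fold that 5% of the KO line 2 MR peaks did not reach, and 2031 had their lowest WT fold below it.

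Setd2 encodes the methyltransferase that places the trimethyl mark on lysine 36 of histone H3 (H3K36me3) along the bodies of transcribed genes, using S-adenosylmethionine made from methionine. In myoblasts, MyoD opens muscle enhancers and promoters through E-boxes, myogenin and the MEF2 factors then act with it at terminal differentiation genes, and sarcomere, calcium-release and fusion genes follow. The gene ends of Setd2 carried a peak in all 6 D5 libraries and in all 12 libraries of D0 and D1, which does not check the edit. Myod1, the determination factor of muscle cells, carried a gene-end peak in all 12 early libraries and all 4 WT D5 libraries, and in 1 of the 2 of KO line 2. Of 42 marker genes in 8 lists for bone, fat, cartilage, neural, endothelial, blood, epithelial and smooth muscle cells, 6 had a gene-end peak in all 4 WT D5 lists and 7 in both KO line 2 lists.

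Promoters of muscle genes stood among the lost regions, and 6 of them are shown first, with 1 promoter on a gained region, to let the letters be read beside the calls. Each line gives the 250 bases before a RefSeq transcription start of assembly GRCm38.p6, 5′ to 3′ on the strand of the gene. Capitals mark matches, on either strand, to the E-box CAGCTG, the MEF2 motif (CTA and TAG with 4 bases between them), the CArG box bound by serum response factor, the MCAT motif CATTCC bound by TEAD factors, or the AP-1 motif TGANTCA. Positions count back from the start. These 5 motifs were chosen with the results known, and matches to different motifs may overlap. The first 6 windows overlapped a lost region and the last one, of Syt1, a gained region. For Tnnt2 the lost region was chr1:135836021-135836463, while all 6 D5 lists called a peak within 1 kb of its gene ends, so its gene end does not count as lost.
Myog (myogenin; chr1:134289754-134290003, plus strand): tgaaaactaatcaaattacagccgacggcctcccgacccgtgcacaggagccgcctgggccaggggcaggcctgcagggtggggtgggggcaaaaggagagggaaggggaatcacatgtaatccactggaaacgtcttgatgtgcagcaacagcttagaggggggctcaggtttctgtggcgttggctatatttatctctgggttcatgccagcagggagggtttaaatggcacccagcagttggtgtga
Acta1 (skeletal muscle actin; chr8:123894776-123895025, minus strand): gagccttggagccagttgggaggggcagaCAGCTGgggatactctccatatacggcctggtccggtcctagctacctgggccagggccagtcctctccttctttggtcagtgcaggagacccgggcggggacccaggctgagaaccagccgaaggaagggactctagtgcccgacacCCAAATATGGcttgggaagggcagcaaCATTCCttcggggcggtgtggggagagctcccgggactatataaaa
Tnnt2 (cardiac troponin T; chr1:135836084-135836333, plus strand): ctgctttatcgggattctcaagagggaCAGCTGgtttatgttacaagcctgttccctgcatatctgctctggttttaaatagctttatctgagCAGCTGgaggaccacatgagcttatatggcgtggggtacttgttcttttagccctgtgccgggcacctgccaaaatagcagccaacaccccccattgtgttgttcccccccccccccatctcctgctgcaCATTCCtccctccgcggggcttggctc
Mybph (myosin binding protein H; chr1:134193198-134193447, plus strand): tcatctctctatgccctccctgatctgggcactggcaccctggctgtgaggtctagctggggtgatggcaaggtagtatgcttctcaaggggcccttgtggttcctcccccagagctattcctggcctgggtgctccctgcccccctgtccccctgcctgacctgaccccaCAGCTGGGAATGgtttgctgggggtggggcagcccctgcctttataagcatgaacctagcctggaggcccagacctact
Cacna1s (voltage sensor of the T-tubule; chr1:136052561-136052810, plus strand): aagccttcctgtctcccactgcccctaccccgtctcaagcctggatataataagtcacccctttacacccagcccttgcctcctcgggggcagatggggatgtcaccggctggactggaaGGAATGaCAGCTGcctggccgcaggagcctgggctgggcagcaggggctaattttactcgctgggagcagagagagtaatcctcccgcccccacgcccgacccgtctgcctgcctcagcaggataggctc
Ttn (titin; chr2:76982548-76982797, minus strand): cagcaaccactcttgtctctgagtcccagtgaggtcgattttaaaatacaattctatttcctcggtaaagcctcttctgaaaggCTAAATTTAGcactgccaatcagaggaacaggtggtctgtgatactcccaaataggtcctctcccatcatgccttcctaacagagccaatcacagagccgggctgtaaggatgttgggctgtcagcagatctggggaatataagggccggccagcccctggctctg
Syt1 (synaptotagmin 1; chr10:109010976-109011225, minus strand): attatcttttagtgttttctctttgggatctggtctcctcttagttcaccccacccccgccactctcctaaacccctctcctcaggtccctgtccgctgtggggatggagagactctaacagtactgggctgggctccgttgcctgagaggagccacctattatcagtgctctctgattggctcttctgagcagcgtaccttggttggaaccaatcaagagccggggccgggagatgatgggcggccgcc

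The Acta1 window held an E-box at -221 to -216, a CArG box at -73 to -64 and an MCAT motif at -46 to -41. In Tnnt2 there were E-boxes at -223 to -218 and -157 to -152 and an MCAT motif at -27 to -22. Mybph had its E-box and MCAT motif side by side, from -79 to -74 and -73 to -68, and Cacna1s had them at -123 to -118 and -130 to -125. The Ttn window held a MEF2 match at -166 to -157. No letters of these 5 motifs matched in the Myog and Syt1 windows. Only the stated forms were searched, CAGCTG alone for the E-box, so other E-boxes and other forms of MEF2 sites may be present. Over all lost promoter windows, 18.8% of 293 held the E-box, against 12.2% of all 21045 windows and 11.3% of 5272 windows on shared regions. Among the 93 gained windows the E-box share was 11.8%, and the AP-1 motif share was 8.60%, against 3.41% of lost and 6.17% of all windows. The MEF2 motif was in 2.39% of lost and 3.09% of all windows, the CArG box in 2.73% and 1.40%, and MCAT in 11.6% of both. The median GC content was 62.8% in lost, 62.4% in shared, 56.0% in gained and 55.6% in all windows. These shares are descriptions, and the part of base composition in them was not tested.

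Lost and gained regions lay in different places. Within 1 kb of an end of a protein-coding gene were 16.9% of lost and 10.1% of gained regions, against 43.8% of shared and 22.3% of all regions. Gene bodies held 51.2% of the lost, 39.6% of the gained and 43.2% of all regions. Between genes lay 31.9% of the lost, 50.3% of the gained and 34.5% of all regions. The lost regions had a median width of 211 bp, the gained 181 bp and all regions 177 bp. In strength, the median lost region stood at percentile 42.9 and 39.9 of its list by −log10 q in WT CTL and 59.4 in both WT MR libraries. The median of all regions called in the 4 WT lists was 60.1 and 57.5 in CTL and 76.5 in both MR libraries. The median gained region stood at percentile 38.6 in KO line 2 CTL and 31.7 in MR, against 65.2 and 55.0 for all regions called in both lists. Lost and gained regions were thus weaker peaks than the regions called in the same lists. Just outside the rule were 2095 regions called in 3 WT and no KO list, 2278 in 4 WT and 1 KO list, 4737 in no WT and 1 KO list, and 809 in 1 WT and both KO lists. With 2 libraries against 4, the smallest two-sided exact p is 0.0667, so no region was tested on these calls.

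Which set was the larger depended on how peaks were chosen. With every list reduced to its 20000 strongest peaks, 2273 regions were lost and 2489 gained. When the lists were thinned to the lowest estimated background coverage of the 6, 1425 were lost and 3140 gained, and 1424 of the 3038 lost regions were still lost. The order of the 2 sets is therefore not a result here, and the part of coverage in single calls was not tested. Without the KO line 2 CTL library 4944 regions were lost and 2857 gained, and without the MR library 3430 and 5591. Within CTL alone, 3984 regions were lost and 13052 gained, and within MR alone 16463 were lost and 2933 gained.

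Genes of muscle differentiation were found near lost regions more often than genes at large. Of 96 genes in 5 lists (myogenic regulators, sarcomere, myoblast fusion, calcium handling and synapse, muscle energy metabolism), 53 (55.2%) were the nearest gene, within 50 kb, of at least 1 lost region, against 9.37% of all 21631 protein-coding genes. Of the 96, 2 (2.08%) were so placed for a gained region, the fusion genes Dock1 and Kirrel, against 5.24% of all genes. With lists thinned to 1 estimated coverage the muscle count was 43 for lost regions, with 4.95% of all genes so placed, and 4 for gained regions, with 9.20% of all genes. In CTL alone it was 54 lost and 31 gained, beside 11.7% and 28.1% of all genes. The plot of list shares shows that sarcomere genes led, with 23 of 37, followed by 12 of 20 calcium and synapse genes, 4 of 8 energy genes, 7 of 15 regulators and 7 of 16 fusion genes. No gained region was nearest to a gene of the sarcomere, calcium, energy or regulator lists.

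**Figure D1:**
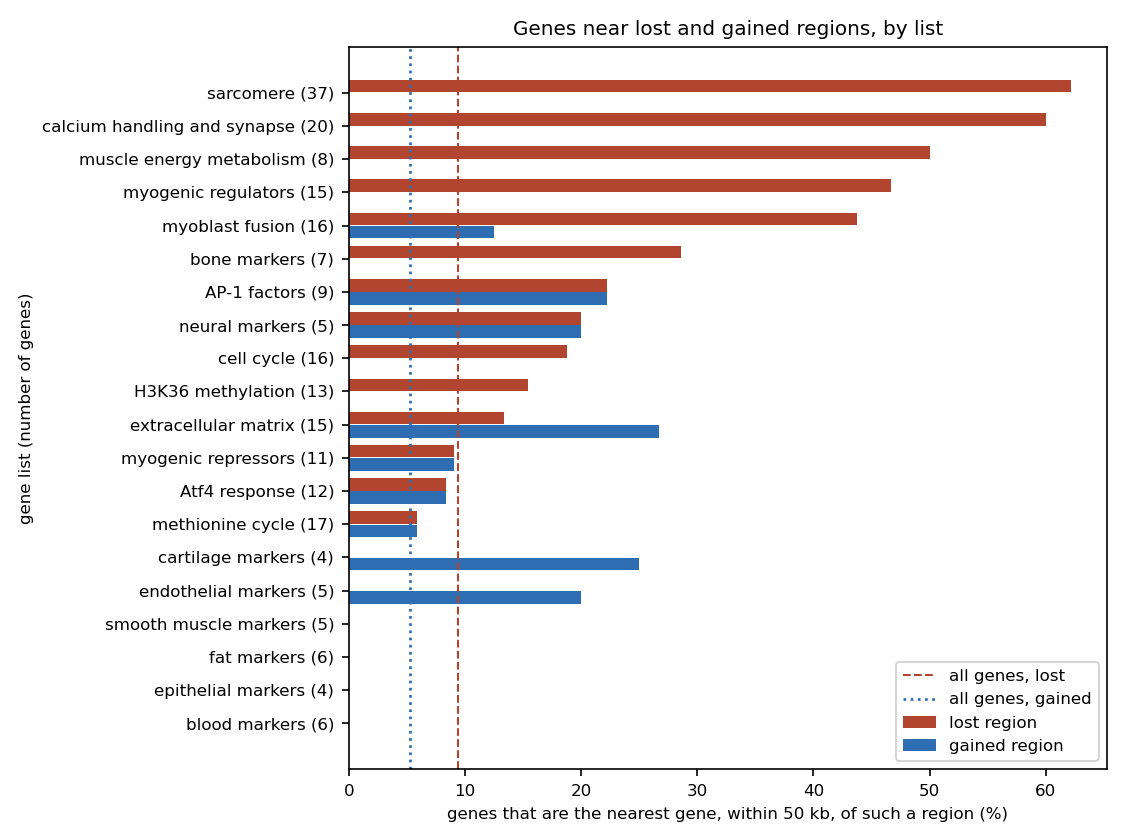
Percent of the genes of each list (y axis, with the number of genes) that were the nearest gene within 50 kb of a lost (red) or gained (blue) region, with the shares of all protein-coding genes as a dashed (9.37%) and a dotted (5.24%) line. The 5 muscle lists have the 5 longest red bars.

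Calls within 1 kb of a gene end are a separate measure from the nearest genes counted above. These gene-end calls come from the same D5 lists that the rule used, so their D5 values are a description only. Of the 96 genes, 58 and 54 were called in WT D5 CTL and 65 in each WT D5 MR library, against 31 in KO line 2 CTL and 29 in MR. Since the lists chose the regions, nothing is read from the difference. The same count over all protein-coding genes was 7795 and 7496 in WT CTL, 9568 and 9631 in WT MR, 8457 in KO line 2 CTL and 7411 in MR. At D0 the muscle count was 46 and 50 in WT, 44 in KO line 1 and 33 in KO line 2. Over all genes at D0, 9833 and 10512 were called in WT, 11239 in line 1 and 7629 in line 2, so line 2 was the lowest there as well. At D1 in CTL it was 64 and 58 in WT, 55 in line 1 and 50 in line 2, beside 10904 and 10048 of all genes in WT, 10960 in line 1 and 10110 in line 2. In D1 MR the muscle count was 65 and 63 in WT, 50 in line 1 and 35 in line 2. Over all genes at D1 in MR, 11452 and 11019 were called in WT, 10105 in line 1 and 8783 in line 2. In ATAC-seq of a culture, fewer cells with an open site and a less open site in each cell cannot be told apart.

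A gene end was lost, by the same rule, at 404 genes (1.87% of all) and gained at 126 (0.582%). Genes that share an end are each counted, among them many protocadherin gamma genes that end near position 37841870 of chromosome 18. In the 5 muscle lists 20 genes had a lost end and none a gained one. Among the regulators, Myog and Mef2b had one. The Myog region, chr1:134289624-134290070, covers the window printed above. Its fold enrichment was 3.62 and 3.47 in WT CTL and 3.79 and 3.44 in WT MR, and it had no call in either library of KO line 2. All 4 WT D1 libraries called a Myog gene end as well, while neither WT D0 library and none of the 6 KO libraries of D0 and D1 did. The Myog peak was thus called from D1 on in WT and at no time in either KO line, of which line 1 had the short lists given above at D5. A second lost region lay 1857 bp past the gene, with a fold of 3.08 to 4.14 in the WT lists. Myod1, Mef2d and Tead4, a TEAD factor of muscle genes, were nearest to 3, 2 and 3 lost regions. The strongest of the Tead4 regions, in the gene body (chr6:128236610-128236942), had a fold of 6.26 and 5.61 in WT CTL and 8.99 and 8.93 in WT MR.

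The sarcomere list, the proteins of the contractile unit, had lost ends at 8 genes: Acta1, Actc1 (cardiac actin), Tnni2 (fast troponin I), Tnnc1 (slow troponin C), Ttn, Mybph, Lmod2 (leiomodin 2, a thin filament protein) and Unc45b (a myosin chaperone). At the Acta1 start, chr8:123894659-123895067, the fold was 4.30 and 3.92 in WT CTL and 5.64 and 4.83 in WT MR. For Tnnc1, a region inside the gene and within 1 kb of its start (chr14:31209155-31209609) had a fold of 4.40 and 4.08 in WT CTL and 5.65 and 5.51 in WT MR. At the Ttn start (chr2:76982375-76982930) the values were 6.13 and 4.48 in CTL and 7.54 and 7.21 in MR. None of these had a peak in KO line 2 at D5. The embryonic myosin gene Myh3 was nearest to 5 lost regions, with 1 in the gene body and the other 4 within 23273 bp of it. Myoglobin, Mb, was also nearest to 5.

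**Figure D2:**
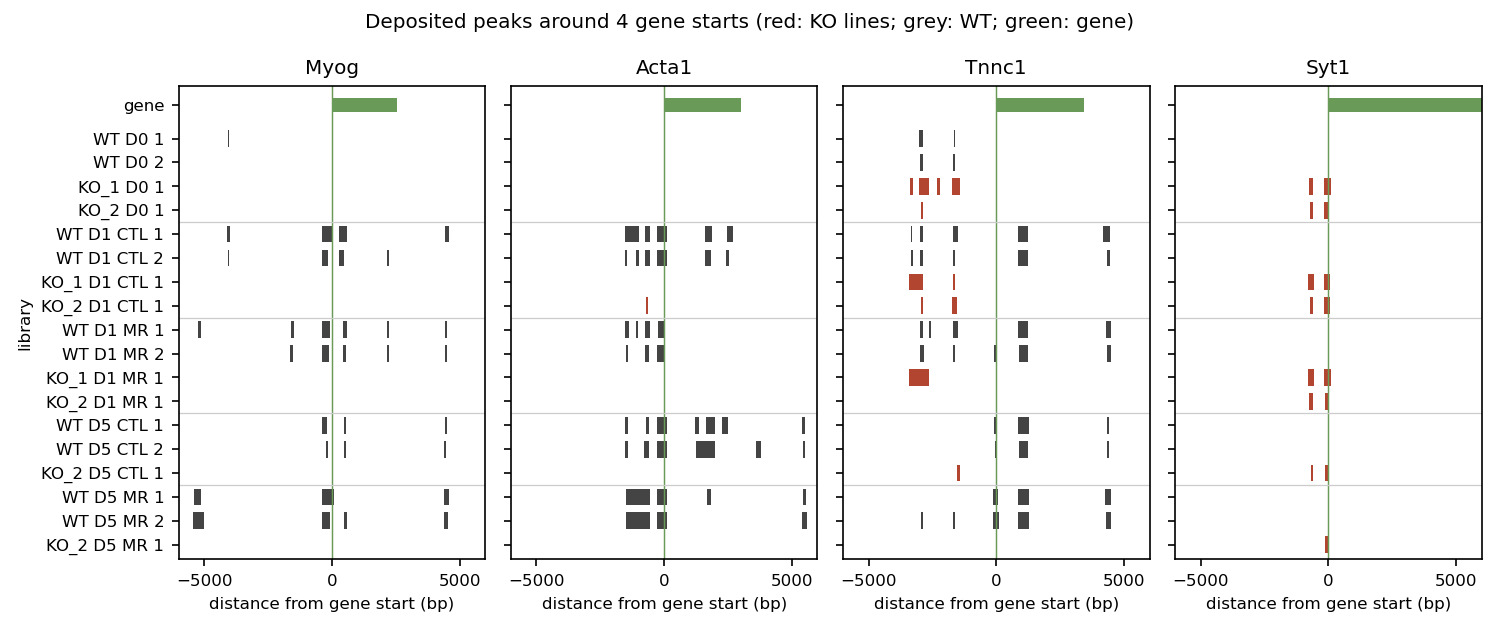
Deposited peaks (bars) in 18 libraries (rows; the D5 libraries of KO line 1 are not drawn) by distance in bp from the starts of Myog, Acta1, Tnnc1 and Syt1, with WT in grey, KO lines in red and the gene in green. At Myog no KO row has a bar, and at the Syt1 start no WT row has one.

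Genes of fusion and of the triad, the junction where the T-tubule voltage sensor meets the calcium release channel, followed. Fusion genes with a lost end were Mymk and Mymx, the membrane proteins myomaker and myomixer that drive myoblast fusion, and Cav3, the muscle caveolin. Mymk was nearest to 3 lost regions, the strongest on its start (chr2:27072068-27072256) with a fold of 4.78, 4.39, 5.98 and 6.56 in the 4 WT libraries. Lost ends of the calcium list were those of Ryr1 (the release channel), Cacna1s (the voltage sensor), Casq2 (calsequestrin), Jsrp1, Stac3 (an adaptor of the voltage sensor) and Chrnd (a subunit of the acetylcholine receptor). The Cacna1s region, chr1:136052385-136052856, had a fold of 4.34 and 3.21 in WT CTL and 5.29 and 4.25 in WT MR. At the Ryr1 start the fold was 4.91 and 4.47 in CTL and 6.47 and 6.19 in MR. Dok7, an activator of the muscle synapse kinase, and Jph2, a protein of the triad, were nearest to 3 and 4 lost regions, and Pygm, muscle glycogen phosphorylase, had a lost end.

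**Figure D3:**
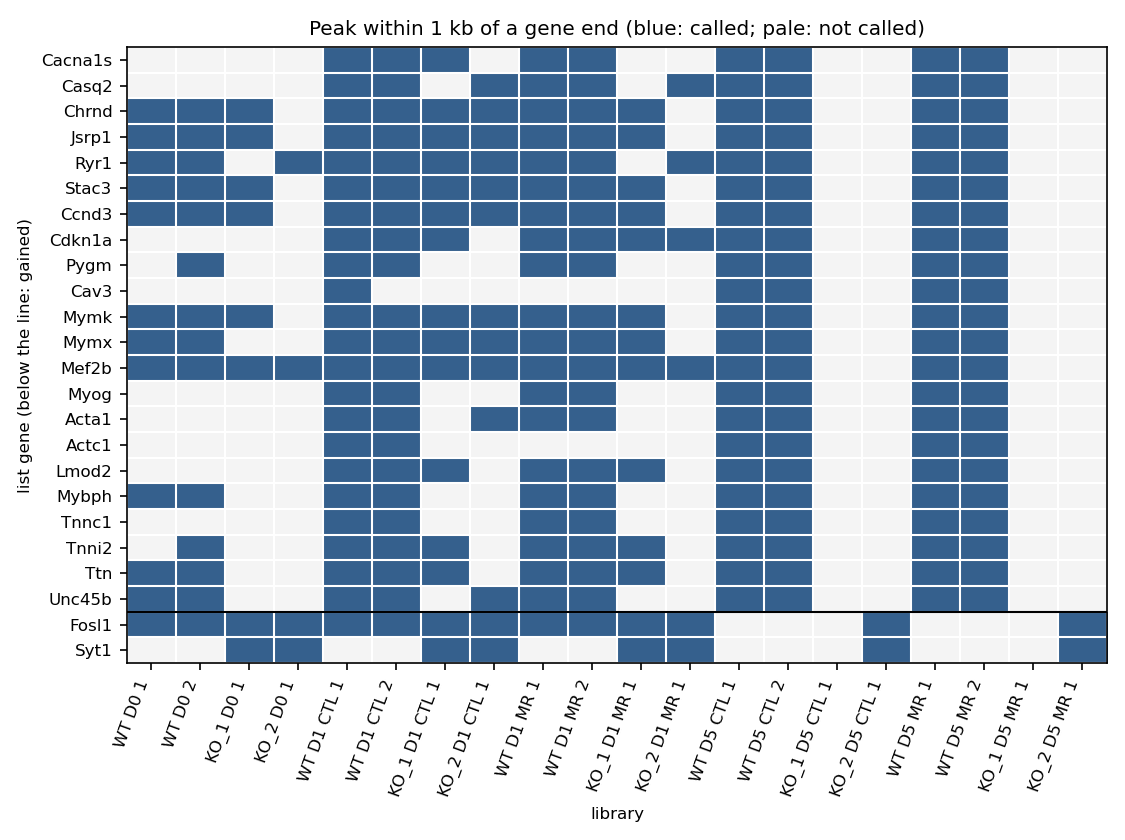
Peak calls within 1 kb of a gene end (blue, called; pale, not called) for the 24 list genes with a lost (above the line) or gained (below) gene end, in the 20 libraries. The D5 columns of WT and KO line 2 follow from the rule. Myog, Tnnc1, Actc1, Mybph, Cav3 and Pygm have no call in any KO column of D0 or D1. In the 6 WT columns of D0 and D1 they have 4, 4, 2, 6, 1 and 5 calls, in that order.

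The other lists hold few genes each, and their counts stand beside the 9.37% of all genes near a lost and the 5.24% near a gained region. Of 16 cell cycle genes, 2 had a lost end: Ccnd3, cyclin D3, and Cdkn1a, the cell cycle inhibitor p21, both of which act at cell cycle exit of myoblasts. Ccnd3 was nearest to 4 lost regions and Cdkn1a to 3. The extracellular matrix list had 2 of 15 genes near lost regions (Col5a1, Thbs2) and 4 near gained ones (Col12a1, Col1a1, Col1a2 and Lox). A gained region at an end of Col1a1 was called in all 3 early libraries of KO line 2 and in none of KO line 1 or WT. Other peaks within 1 kb of the Col1a1 ends were called in all 6 early WT libraries and all 3 of KO line 1. At D5 both WT MR libraries called one too, so its gene end does not count as gained. For AP-1, the factor formed by Fos and Jun proteins, 2 of 9 genes, Fosb and Junb, were near lost regions and another 2, Fosl1 and Jun, near gained ones. Fosl1 had a gained end, with a fold of 4.28 and 4.37 in KO line 2, and every early library of either genotype called it. Of 13 genes of H3K36 methylation, the demethylase gene Kdm4b was nearest to 3 lost regions and Smyd2 to 1. In the methionine cycle list of 17 genes, the amino acid transporter gene Slc43a2 was near a gained region. Among 42 markers of other cell types, 3 (7.14%) were near a lost region and 3 near a gained one. The neural marker Syt1, which encodes a calcium sensor of synaptic vesicles, had 3 gained regions, including its start. Their fold was 5.97, 4.44 and 5.07 in KO line 2 CTL and 3.70, 4.34 and 3.47 in MR.

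Chosen by strength alone, the 10 lost regions with the highest lowest percentile over the 4 WT lists were nearest to Arid3a, Calcoco1, Sdc1 (syndecan 1), Ccdc162, St3gal5 (a ganglioside synthase), Ubap2, Tead4, Pacs2, Nt5c1a and Lsp1. The Arid3a region (chr10:79945547-79945804, gene body) had a fold of 7.15 and 7.79 in WT CTL and 11.1 and 9.54 in WT MR. Only Tead4 of these is in a muscle list. The 10 gained regions so chosen were nearest to Cdc7 (a kinase of DNA replication), Cetn1, Stim2, Arap2, Map3k7, Slit3 (a guidance ligand), Pcdh9 (a protocadherin), Igfbp7, Serp2 and Insig2, with 9 of the 10 between genes and the Igfbp7 one in the gene. Of these 10, 7 lay more than 50 kb from an end of the gene, from 55131 bp for Slit3 to 1352736 bp for Map3k7, so the names serve as positions only. Of the 10 lost regions, the Calcoco1 one did, at 54389 bp. The Cdc7 region (chr5:107001864-107002056) lay 17424 bp from an end of the gene and had a fold of 11.8 in KO line 2 CTL and 10.6 in MR. It was called in all 6 KO libraries of D0 and D1 and in no WT library.

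Lost regions were nearest to 2158 genes and gained regions to 1439, with 235 genes on both. Most of these genes had 1 such region, 1626 and 1159 of them. Arid1b and Zmiz1, genes of a chromatin remodelling subunit and of a transcriptional coactivator, Msi2 (an RNA-binding protein) and Gata5 had 7 lost regions each, and Aopep and Bod1 had 6. Adgrl2, an adhesion receptor gene, had 8 gained regions and no shared one. Lratd2, the olfactory receptor gene Olfr1324 and Tgfbr3 (betaglycan, a TGF-beta coreceptor) had 6 gained regions each, and Gsdmc and Ttll7 had 5. Arid1b spans 353360 bp and had 30 regions in all, and Gata5 spans 10416 bp and had 13; the part of gene length in these counts was not tested.

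Chromosomes contributed unequally. Of the regions called in all 4 WT lists, 22.1% were lost on chromosome 17 and 22.0% on chromosome 18, against 11.54% on chromosome 3 and 9.60% on X. Of the regions called in both KO line 2 lists, 12.97% were gained on chromosome 3 and 11.9% on chromosome 15, against 5.16% on chromosome 17. Chromosomes with a high lost share were not always those with a low gained share, since chromosome 1 had 18.7% and 10.2%. Whether chromosome copy number moved with these shares was not tested.

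The libraries of D0 and D1, which the rule did not use, were then asked whether the same regions differed between genotypes before D5. They were 6 WT libraries and 6 KO libraries, 3 of each KO line, at D0, D1 CTL and D1 MR. Lost regions were called in 72.2% and 77.7% of cases in WT D0, 59.3% in KO line 1 and 25.3% in line 2, where all regions gave 66.6%, 74.3%, 78.4% and 52.1%. In D1 CTL the lost shares were 95.5% and 91.2% in WT, 78.2% in line 1 and 55.5% in line 2, beside 78.0%, 69.5%, 80.9% and 68.8% of all regions. In D1 MR they were 94.2% and 91.7% in WT, 66.0% in line 1 and 33.2% in line 2, beside 86.8%, 81.3%, 73.5% and 60.7%. The lost share was thus above that of all regions in each WT library and below it in each KO library. For gained regions the order turned: they were called in 20.4% to 50.3% of cases in the 6 WT libraries and in 60.8% to 84.3% in the 6 KO libraries. In KO line 1 D1 CTL and MR the gained shares, 80.0% and 73.0%, were close to those of all regions.

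**Figure D4:**
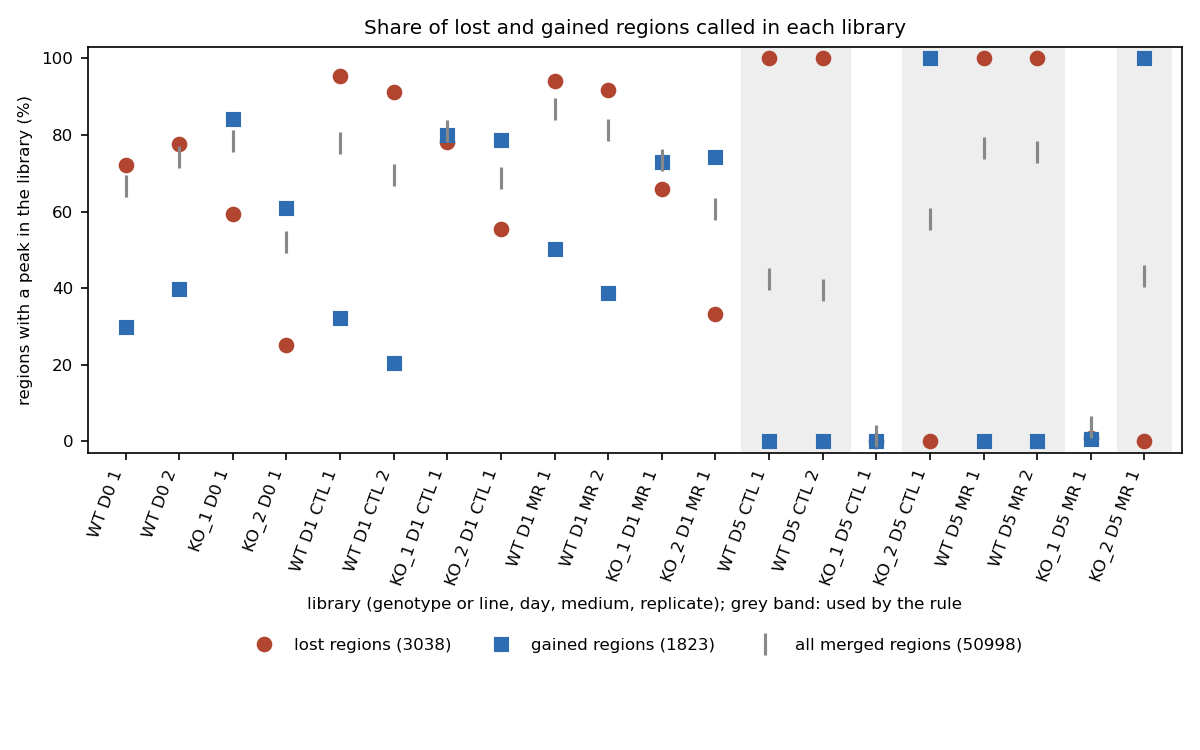
Percent of lost (red circles), gained (blue squares) and all merged regions (grey ticks) with a peak in each of the 20 libraries; grey bands mark the 6 libraries that the rule used, where the values are fixed. At D0 and D1 every WT library has more lost than gained regions called, and gained lie above lost in all 6 KO libraries.

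Region by region, calls of D0 and D1 were compared with a two-sided exact permutation test that exchanged genotype within day and medium (216 arrangements). Only regions whose calls could reach an unadjusted p of 0.05 were testable, 3648 of the 50998. Of these, 1362 (37.3%) were called less often and 754 (20.7%) more often in KO, at a Benjamini-Hochberg adjusted p of 0.0393 to 0.0479. Among the lost regions 272 were testable, 235 were lower in KO and none was higher. Among the gained regions 429 were testable, 363 were higher and none was lower. Without KO line 2, so with line 1 alone at an estimated background coverage of 3.15 to 5.20, 161 of 174 testable lost regions were lower and 1 higher, and 389 of 424 testable gained regions were higher and 3 lower. Without KO line 1, 487 of 499 testable lost regions were lower and 280 of 312 gained regions higher. With 1 line, only full separation of its calls from the 6 WT libraries passed. Being testable thus largely fixed passing, though not its direction, and these ratios are not read as replication. Full separation of line 1 was held by 5.30% of all lost regions (lower) and 21.3% of gained ones (higher). The shares of all regions were 2.12% and 2.52%. For line 2 it was held by 16.03% and 15.4%, beside 4.25% and 0.984% of all regions. The shares over all testable regions moved with the line: 36.5% were lower and 43.3% higher without KO line 2. Without KO line 1 they were 68.1% and 15.8%. Each KO line recurs in all 3 conditions, so its libraries are not fully independent. The exact p-values are coarse: without WT replicate 1 no region of any kind passed (adjusted p = 0.128, exact permutation test; 136 lost regions lower and 249 gained higher at an unadjusted p under 0.05), nor without WT replicate 2 (adjusted p = 0.126; 112 and 212). With calls that required peaks over 50% of the region, none passed either (adjusted p = 0.0518, exact permutation test; 258 and 331).

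The early calls were then read for the lost regions near muscle genes. Of the 92 lost regions near genes of the 5 muscle lists, 45 had no call in any of the 6 early KO libraries, 31 were called in all 6 early WT libraries, and 12 were testable, of which 10 were lower in KO. Over all 3038 lost regions, 2074 (68.3%) were called in all 6 early WT libraries, a larger share than among the muscle regions. No count over all lost regions stands beside the 45 without an early KO call. Of all testable lost regions, 235 of 272 (86.4%) were lower in KO, so no difference is read from the 10 of 12 muscle regions. Of the 10, 5 were called in all 6 early WT libraries and no early KO library, at an adjusted p of 0.0393 (exact permutation test): regions in the gene bodies of Dok7, Dysf (dysferlin, a membrane repair protein), Myh3 and Mylpf (fast myosin light chain), and one 2715 bp from Myh7 (slow myosin). The Dysf region, chr6:84022057-84022335, was the strongest of these at D5, with a fold of 5.23 and 4.70 in WT CTL and 9.27 and 10.1 in WT MR. The other 5 lay near Mb, Mef2d, Actc1, Actn3 (an actinin of fast fibres) and Xirp1, with an adjusted p of 0.0479. In Ccnd3, 3 gene body regions on chromosome 17 (starting at 47521647, 47523212 and 47542065) showed 6 WT and no KO calls as well, with folds of 3.29 to 6.95 in the WT D5 lists. This early pattern was held by 100 of all 3038 lost regions (3.29%) and by 549 of all 50998 regions (1.08%). No difference from the other lost regions is therefore read from the 5 muscle regions or the 3 of Ccnd3. Myog, with calls in 4 WT and no KO library, reached a p of 0.0556 in the exact permutation test and was not testable.

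Early calls at gene ends separated the genotypes fully at few genes. Of the 404 genes with a lost end, 354 had a gene-end peak in all 6 early WT libraries, 73 in all 12 libraries, and 12 in all 6 WT and no KO libraries. The 12 include Mybph, Mamstr (a coactivator of MEF2 factors), Kcnab2 (a potassium channel subunit), Gab2 (a signalling adaptor), Mdga1 and Scnn1g. Of the 126 with a gained end, 32 had no early WT call and 8 had none in WT and a call in all 6 KO libraries, among them St8sia4 (a polysialyltransferase), Sparcl1, Mgst1, Syt1, Ctla2a, Ctla2b and Gda. No counts of these early patterns over all protein-coding genes stand beside those of the 404 and 126, so no difference is read. Ctla2a and Ctla2b are neighbouring paralogs, so reads of one may have been placed on the other. For Syt1, the start region (chr10:109010969-109011118) and one in the gene body (chr10:108581720-108581906) were each higher in KO at an adjusted p of 0.0393 (exact permutation test).

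Regions called in all 6 D5 lists allow a comparison of degree. Their fold enrichments were ranked within each library, and ranks, as normal scores, were compared between KO line 2 and WT with limma, with medium as a covariate. Of 11888 shared regions, 1024 (8.61%) ranked lower and 818 (6.88%) higher in KO line 2 at an adjusted p of 0.05 or less (limma). The count was 1012 without WT CTL replicate 2, 972 without WT MR replicate 1, 689 without WT MR replicate 2 and 1018 without the covariate. A rank is relative to the other shared regions and does not show an absolute change.

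Regions were named only if they passed the threshold and their ranks in KO line 2 did not overlap those in WT. Of these, the 10 with the largest fall in rank lay nearest to Cdk5rap3, Rap1gap2, Lbh, Jph2, Ston2, Inka2, Btg2 (an antiproliferative gene), Slc44a3, Rnf217 and Pknox1. The Cdk5rap3 region (chr11:96906448-96906859, 566 bp from a gene end) stood at percentile 99.3 and 99.1 in WT CTL and 97.1 and 93.5 in WT MR, against 1.92 in KO line 2 CTL and 4.004 in MR. The difference in normal scores was −3.96 ± 0.327 (SE; adjusted p = 0.00146, limma). For Jph2 (chr2:163353692-163354241, gene body) the percentiles were 92.2, 94.2, 88.3 and 92.3 in WT and 15.8 and 0.294 in KO line 2 (difference −3.28 ± 0.374, adjusted p = 0.00247, limma). The 10 with the largest rise lay nearest to Gtf2i, Clint1, Auts2, Prickle1, Kif3c, Gfpt2, Glipr2, Chst7, Ddah1 and Pold4. At Gtf2i, a general transcription factor gene, the region in the gene body (chr5:134313492-134313789) stood at 2.17, 4.08, 2.80 and 1.26 in WT and at 75.5 and 84.5 in KO line 2 (difference 2.83 ± 0.299, adjusted p = 0.00247, limma). All 20 kept their direction and passed the threshold with each of the 6 libraries left out in turn, with −log10 q in place of fold and with chromosome medians removed.

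**Figure D5:**
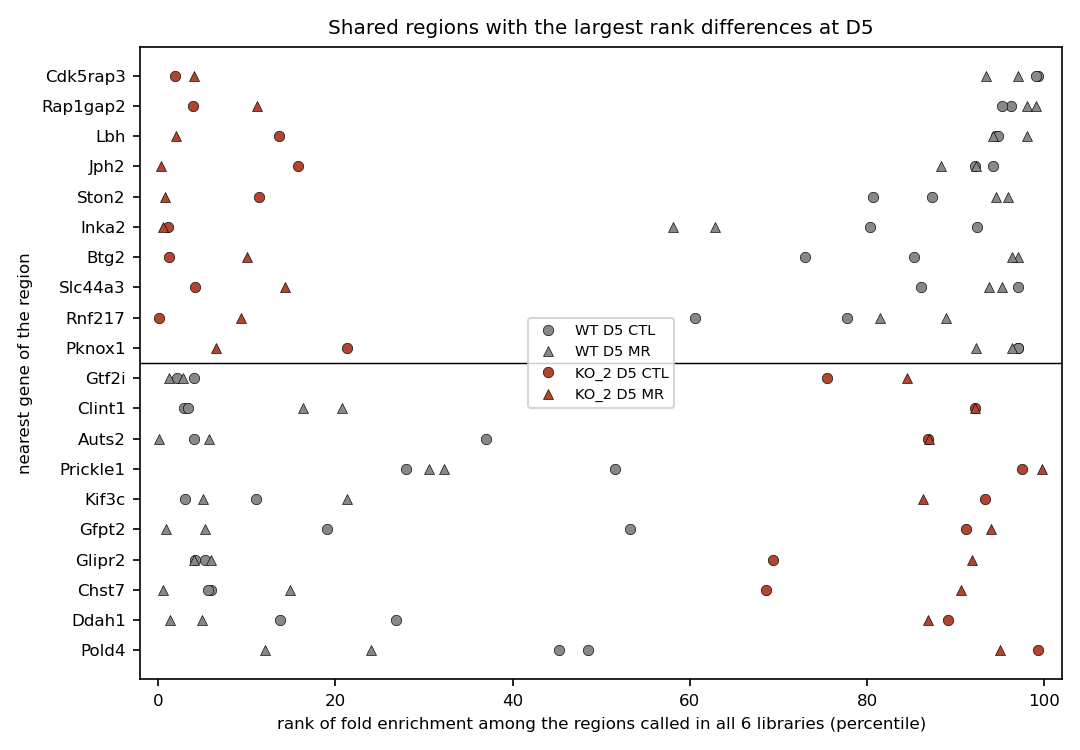
Percentile of the fold enrichment among shared regions (x axis) in the 6 D5 libraries (grey, WT; red, KO line 2; circles, CTL; triangles, MR) for the 20 regions with the largest rank differences, by nearest gene. In the upper 10 rows both red marks lie left of all grey ones, and in the lower 10 right of them. The regions were chosen to have no such overlap, so this separation is fixed by the choice.

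Shared regions near muscle genes shifted down more often than up. Of 86 such regions, nearest within 50 kb to 44 genes of the 5 lists, 20 ranked lower and 8 higher, with a median difference of −0.48, against 0.03 for all shared regions. Over all 11888 shared regions, 1024 (8.61%) ranked lower and 818 (6.88%) higher. The calcium and synapse list had 9 lower and 3 higher of 20, with Jph2, Ryr1, Dok7 and Cacng1 (a subunit of the voltage sensor) among the lower and Chrnb1 and Musk among the higher, while Chrna1 had 1 of each. At Ryr1 a shared region (chr7:29123651-29124427) lay apart from the lost region at its start. Both KO line 2 lists called it, though neither had a peak within 1 kb of a Ryr1 end. Its mean percentile was 89.4 in WT and 16.4 in KO line 2 (difference −2.29, adjusted p = 0.00399, limma). A region 25826 bp from Myod1 fell from a mean percentile of 81.6 to 12.4 (difference −2.57, adjusted p = 0.0107, limma). Sarcomere regions were mixed, with 2 of Ldb3 and 1 of Des (desmin) lower and 2 of Tpm2 (a tropomyosin) higher. For Mef2d, 1 region ranked lower and 1 higher. Outside the muscle lists, 3 of 22 AP-1 regions ranked lower (2 of Junb and 1 of Fos) and none higher, with a median difference of −0.43. Of 24 matrix regions, 4 ranked higher and 1 lower, with a median of 0.20. Of 16 methionine cycle regions, 3 ranked higher and none lower, with a median of −0.14. The 3 were 2 of Mat2a (the enzyme that makes S-adenosylmethionine) and 1 of Slc43a2. These lists hold few regions, so their counts are not read as differing from the shares of all shared regions.

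The same shared regions were compared at D1 in each KO line, without a test. Of the 987 lower regions that all 8 D1 lists called, 854 (86.5%) lay below WT in KO line 2 and 652 (66.1%) in KO line 1, against 48.4% and 48.7% of all 11638 such regions. Of the 801 higher ones, 716 (89.4%) lay above WT in line 2 and 608 (75.9%) in line 1, against 51.6% and 51.3% of all. The 2 lines share their WT libraries at D1.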

How the data were processed

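ATAC-seq of C2C12 cells was deposited as 1 broadPeak list per library, called per library, for 20 libraries. Per the labels' protocols, cells were tagmented with a kit, amplified with 10 PCR cycles and sequenced paired-end on a NovaSeq instrument. The build GRCm38 is from the submitters' processing notes, and the aligner, peak caller, duplicate handling and transposase shift are not given in the sources used here. The authors' deposited values per peak are a fold enrichment (a ratio), a −log10 p-value and a −log10 q-value, none of which was compared between lists other than as ranks. The lowest −log10 q-values of the deposited lists are near 1, a q-value of 0.1.

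Read totals were not used here. Background coverage λ was solved per list from the most frequent combination of both values, assuming a pileup k with fold = (k + 1)/(λ + 1) and a Poisson p-value. Genes came from the RefSeq table of GRCm38.p6, with a start-site table of 17274 of its 21631 protein-coding genes; chromosome 18 has none there. Python 3.11.15, SciPy 1.17.1, R 4.3.3 and limma 3.58.1 were used, and both tests across regions were tested on simulated data. Calls are any overlap of 1 bp. Each of the 20 gene lists, the members and the tests were chosen with earlier results of these data known. Named were the 10 strongest lost and gained regions, list genes, the 6 genes with most regions (ties by alphabet) and 10 shared regions per direction. Alternatives were stricter peak thresholds, equal list sizes or depths, other overlaps, single media and each library left out.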

Additional observations from a re-analysis of the deposited data

Results flagged for a closer look

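The number of peaks differed from WT in opposite directions in the 2 media at D5: KO line 2 had 8307 more peaks than the WT mean in CTL, above both WT libraries, and a difference of −17338.5 in MR, below both. This difference between media was not tested, since each medium holds 1 library of KO line 2. Of 8 groups of libraries examined for a value far from the others, 1 held such a value: KO line 2 at D0 called 95.6% of the shared regions, the lowest of the 6 KO libraries of D0 and D1. Chance flags about 1 in 20 groups.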

How the results depend on the processing

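The count of lost regions, 3038, rose to between 3138 and 4944 with 1 library left out, highest without the KO line 2 CTL library. That of gained regions, 1823, rose to between 1835 and 5591, highest without the KO line 2 MR library (2857 without the CTL one). Leaving a library out drops 1 condition of the rule, so a rise follows from the rule and does not measure stability. Gained regions were 494 at a −log10 q of 5 or more, 3140 with estimated coverage equalised, 13052 in CTL alone and 2933 in MR alone. Lost regions were 1425 with estimated coverage equalised, 1997 where peaks had to cover 50% of a region and 16463 in MR alone; in CTL alone the lost count was 3984. In the 50% setting gained regions, 2410, outnumbered lost ones. Muscle-list genes with a lost region were 37 to 74 in the 14 alternatives, added after seeing the data, and those with a gained region 1 to 31.

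In the comparison at D0 and D1, 487 of 499 testable lost regions were lower without KO line 1, beside 68.1% of all testable regions. Only full separation of KO line 2 from WT passed there. In that direction it was held by 16.03% of all lost regions, beside 4.25% of all regions. With 20000 peaks per list, 134 of 152 testable gained regions were higher, beside 26.7% of all testable regions. Without WT replicate 1, without WT replicate 2 or with 50% coverage, 0 regions passed the exact permutation test in total, 0 of the lost and 0 of the gained, beside 1187, 1069 and 2078 regions at an unadjusted p under 0.05. Without D0 no test was possible, since the smallest p is 0.0556.

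Shared regions differing in rank, 1842, were 689 to 2737 with 1 library left out (the highest without the KO line 2 MR library, where the lone KO library is assumed to vary like WT) and 1018 with no covariate. KO line 2 has 1 library per medium, so a replicate block could pair only WT numbers, which did not deviate together (correlation −0.014 between media). With that replicate block 4837 regions passed, at a block correlation of −0.508. No paired analysis was possible because the KO line 2 and WT groups share fewer than 2 replicate numbers. Depth is known here only as estimated background coverage, lower in KO line 2, whose lists began at a higher fold.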
